A study of Mus musculus with 48 samples.

Results

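The first week after birth was followed in the distal small intestine of the mouse by comparing ileum at day 8 with ileum at day 2. The samples were taken by their labels alone, as the 3 ileum libraries of day 8 and the 3 of day 2, which is 6 of the 48 libraries of the series. The series covered the first 4 weeks of life in C57Bl/6J mice, at 8 ages and in duodenum and ileum, and its title places it in the period in which the newborn bowel is susceptible to necrotizing enterocolitis. Both groups were C57Bl/6J mice from Jackson labs still with the dam, at 2 and 8 days of age, and the labels name no treatment. The housing is labelled as standard germ-free, and whether the mice carried bacteria was not measured. A litter usually gave mice of several ages, per the labels, but littermates are not marked, so the part of litter was not tested. Each sample was the last 2 cm of intestine before the ileocecal junction, full thickness, and a shared sample number at the 2 ages does not mark 1 mouse. The p-values below rest on the spread between samples of 1 group, which the fit estimates over 36 libraries in 12 groups of both regions and 6 ages.

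The ileum of a suckling mouse is lined by enterocytes that take up milk protein whole at their apical surface and digest it in large lysosomes, which in rodents stands in for much of luminal protein digestion until weaning. Crypts are not yet complete at birth: stem cells gather between the villi, crypts form below them, and Paneth cells, the crypt cells that secrete antimicrobial peptides, appear last. Genes of fetal growth, many of them imprinted, are switched down over the same weeks in most organs.

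The libraries held between 17687321 and 30670271 estimated counts. Mitochondrial transcripts took 13.2% to 17.1% of the counts at day 2 and 18% to 32.7% at day 8, with day 8 sample 1 the highest. Values are given as CPM, a library's counts scaled to a common total with edgeR's TMM method, in the order of samples 1, 2 and 3. Epcam, the epithelial adhesion molecule, was between 1069 and 1360 CPM in the 6 libraries, and Fabp6, the ileal bile acid binding protein, was between 5.77 and 42.0 CPM against a mean of 0.0273 ± 0.0314 CPM (SD, n = 3) in duodenum at day 2. Marker lists of other tissues were summed in each library. Smooth muscle genes summed to 369, 421 and 348 CPM at day 2 and 314, 289 and 391 CPM at day 8, most of it Mylk, with Acta2 between 3.12 and 15.6 CPM. Over the 6 libraries the genes of pancreatic acinar cells summed to between 19.5 and 29.1 CPM and those of adipocytes and mesothelium to between 93.5 and 109 CPM. Those of caecum and colon summed to 132, 155 and 132 CPM at day 2 and 80.6, 109 and 113 CPM at day 8. Those of skeletal muscle and liver, which include Trf, summed to 310.2, 443 and 350.2 CPM and then 141, 169 and 184 CPM. Within these lists the liver gene Alb, the pancreatic Cpa1, the colonic Car1 and the fat gene Adipoq were under 0.2 CPM in every library, while the liver gene Ttr was at 115, 135 and 117 CPM at day 2 and 97, 121 and 126 CPM at day 8. The sexes were not balanced. Xist, the transcript of the inactive X chromosome, was at 1451, 2.6 and 1.54 CPM at day 2 and at 1365, 1597 and 1613 CPM at day 8, so day 2 samples 2 and 3 differed from the other 4 libraries, and the Y-linked Ddx3y was high in those 2 alone, at 50.8 and 52.6 CPM.

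Of 20442 genes tested, 3865 (18.9%) passed an adjusted p of 0.05 in edgeR's quasi-likelihood test with Benjamini-Hochberg adjustment. Among them 1648 rose from day 2 to day 8, which is 8.06% of the genes tested, and 2217 fell, which is 10.8%. By contrast, changes of more than 2-fold were mostly rises: 883 genes (4.32%) rose and 299 (1.46%) fell by that much, 1182 (5.78%) in all. The median log2 change over all genes tested was 0.004. The number of calls moved with single libraries: it was 1528 without day 8 sample 1, 2011 without day 2 sample 2, 2099 without day 2 sample 3, 2384 without day 8 sample 3, 2458 without day 2 sample 1 and 3491 without day 8 sample 2. With day 2 sample 1 alone, the one day 2 mouse with Xist, set against day 8 it was 323, and with a sex index as a covariate in all samples it was 3005. In the lists described below, the index took the lysosomal falls from 17 to 11, the falls of amino acid and peptide carriers from 8 to 5 and those of xenobiotic genes from 5 to 3.

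**Figure D1:**
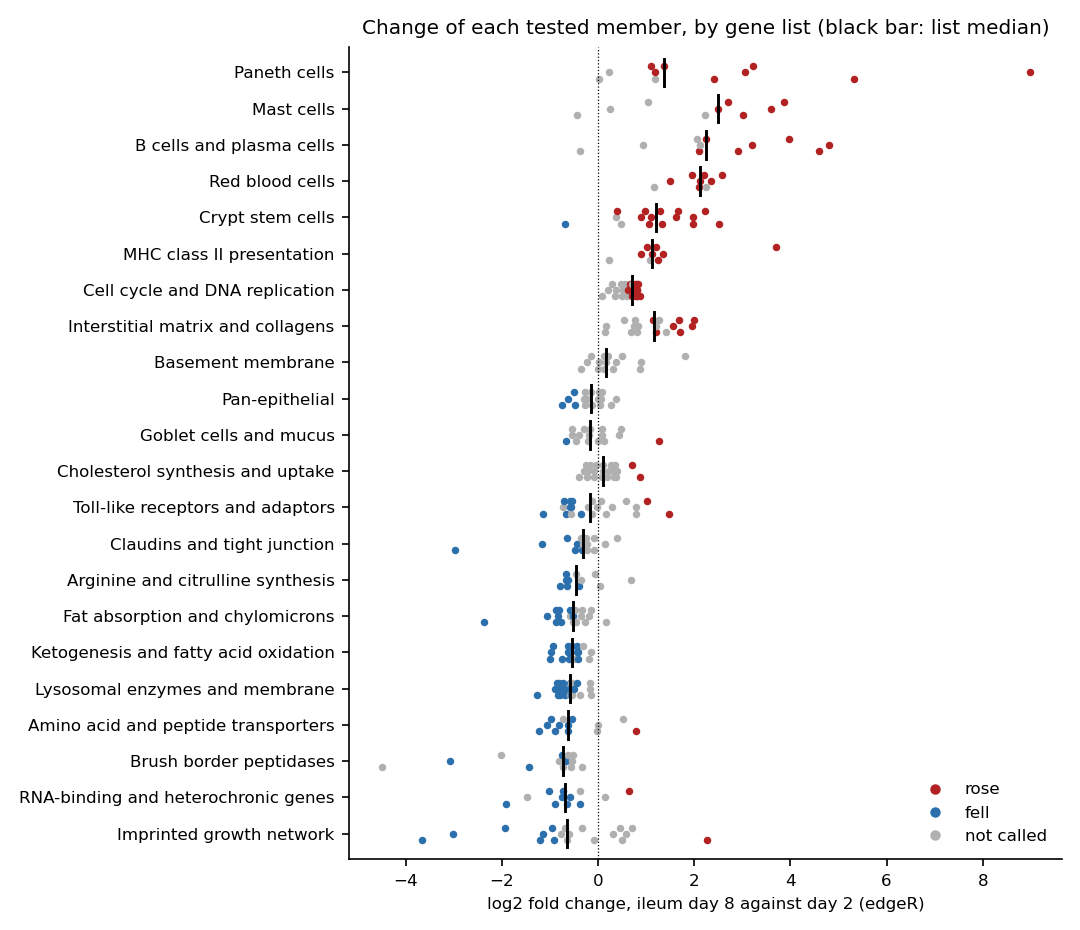
Log2 fold change from day 2 to day 8 of every tested gene in 22 gene lists (horizontal axis), one point per gene, red for genes that rose, blue for genes that fell and grey for genes not called at adjusted p 0.05; the black bar is the list's median. The medians of the Paneth, mast, B, red blood, crypt stem cell and class II lists lie right of 0. Those of the lists of enterocyte function lie left of it, with smaller changes. The goblet cell and Toll-like receptor lists have medians of -0.17 each. The point of the Paneth cell list at 8.97 is Pla2g2a, fitted against 0 counts at day 2.

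The alpha-defensins held most of the largest rises of the ileum among genes reaching a mean of 5 CPM. They are the Paneth cell peptides that puncture bacterial membranes. Summed over the family, alpha-defensin transcripts stood at 365, 243 and 221 CPM at day 2 and at 1461, 900.4 and 1046 CPM at day 8. All 3 day 8 libraries were above all 3 day 2 libraries, and the means were 276.2 ± 77.7 and 1136 ± 291 CPM (SD, n = 3). The 45 genes and pseudogenes of the family lie in 2540 kb of chromosome 8, at chr8:19210462-21750000 (GRCm38). Of these, 28 had enough counts to be tested, 26 rose and 2 (Defa37 and Defa-ps5) were not called. Their transcripts are so alike that a median of 85.4% of the 31-base words of a tested member recur in another, and 56% at the least. The estimated counts had to be divided among these copies, so the value of any one defensin is less certain than the sum.

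Within the family the rise was uneven. Defa24, the most abundant member named here, went from 212, 146 and 133 CPM to 506, 245 and 309 CPM, a log2 change of 1.11 ± 0.29 (SE, edgeR adjusted p = 0.00911). Defa22 went from 0.0627, 0.044 and 0.079 CPM to 19.7, 20.8 and 21 CPM (8.28 ± 0.72, adjusted p = 1.93e-08), and Defa20 from 1.13, 1.01 and 0.158 CPM to 67.4, 63.2 and 73.4 CPM (6.44 ± 0.54, adjusted p = 1.79e-08). Defa24 was thus already transcribed at day 2, while Defa22 and Defa20 were close to absent, and no day 2 library reached a day 8 library for any of the 3. Defa23 was at 1.44, 0.661 and 0.474 CPM and then at 59, 35 and 44.9 CPM (5.69 ± 0.46, adjusted p = 6.77e-09). Of the 26 members that rose, 24 had counts at day 2, and their log2 changes ran from 1.11 (Defa24) to 8.28 (Defa22) with a median of 5.49. Defa5 (8.14), Defa21 (7.73), Defa33 (7.66), Defa41 (6.91), Defa2 (6.21), Defa34 (5.56), Defa32 (5.42) and Defa39 (5.39) were also among the 12 largest rises under the rule for named genes, which asks for a mean of at least 5 CPM at the higher age and no overlap. Defa17 (1.36) and Defa3 (1.53) rose by less, from day 2 levels of 51.6, 42.8 and 33.1 CPM and 85.1, 45.5 and 46.3 CPM. The difference between ileum and duodenum was not called for any of the 28, beside 16.1% of all genes. Its standard error on the log2 scale was 0.449 for Defa17 but 3.46 for Defa32 and 4.30 for Defa27. In duodenum the family sum was 226 ± 22.0 CPM at day 2 and 581 ± 63.4 CPM at day 8 (SD, n = 3). At day 8 the ileum sums (900 to 1461 CPM) were all above those of duodenum (509 to 629 CPM). The sums were not tested between the regions.

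The 150 bases before the transcription start of 3 of these defensins are shown because the genes rose together and the windows share 2 copies of the TCF/LEF motif, the site read by the nuclear factors of Wnt signalling; the window of Lyz1, a Paneth cell gene outside the cluster, is shown beside them. Sequences are RefSeq promoters on GRCm38.p6, written 5′ to 3′ on the strand of the gene, with each ATCAAAG in capitals.
Defa22 (chr8:21162127-21162276, plus strand): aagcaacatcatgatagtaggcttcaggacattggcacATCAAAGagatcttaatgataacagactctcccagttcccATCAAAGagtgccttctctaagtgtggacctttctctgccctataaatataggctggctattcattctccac
Defa20 (chr8:21509108-21509257, plus strand): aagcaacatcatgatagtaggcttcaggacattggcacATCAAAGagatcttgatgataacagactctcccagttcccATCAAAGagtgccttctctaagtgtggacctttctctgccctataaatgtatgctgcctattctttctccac
Defa23 (chr8:21054890-21055039, plus strand): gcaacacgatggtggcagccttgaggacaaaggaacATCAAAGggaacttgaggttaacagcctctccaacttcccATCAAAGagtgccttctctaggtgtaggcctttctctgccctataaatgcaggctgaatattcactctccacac
Lyz1 (chr10:117292869-117293018, minus strand): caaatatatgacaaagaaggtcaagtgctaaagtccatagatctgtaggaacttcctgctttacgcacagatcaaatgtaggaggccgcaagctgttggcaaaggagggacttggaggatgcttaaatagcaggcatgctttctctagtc
The motif was searched as ATCAAAG and, on the other strand, CTTTGAT. It begins 112 and 72 bases before the start in Defa22 and Defa20 and 114 and 74 bases before it in Defa23, and the Lyz1 window does not hold these letters. In windows of 250 bases, 13 of the 16 alpha-defensin promoters in the table held the motif (81.2%) and 9 held 2 or more copies (56.2%), against 1053 (3.21%) and 27 (0.0822%) of all 32851 promoters. A promoter of a gene that rose held it in 40 of 1335 cases (3%), defensins among them, and a promoter of a gene that fell in 44 of 2246 cases (1.96%). The windows of Defa43 (log2 change 4.43) and Defa38 (4.42), which also rose, did not hold the motif. The defensin windows are near copies of each other (those of Defa21 and Defa22, and of Defa2 and Defa20, match at 300 of 300 bases), so they are not independent cases, and a match describes the letters only.

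Other Paneth cell genes rose with the defensins. Lyz1, the Paneth cell lysozyme (chr10:117287797-117292868), was at 12.9, 6.92 and 9.16 CPM at day 2 and 88.5, 74.3 and 81 CPM at day 8, a log2 change of 3.06 ± 0.36 (edgeR adjusted p = 1.54e-06). Itln1, the lectin intelectin, went from 6.36, 4.23 and 5.49 CPM to 56.2, 48.4 and 46.9 CPM (3.23 ± 0.40, adjusted p = 5.42e-06). Neither gene's groups overlapped. Kcnn4, a potassium channel of Paneth cells, was at 2.6, 1.63 and 3.32 and then 11.9, 14.2 and 14.1 CPM (2.41, adjusted p = 5.22e-05), and Ang4, an antimicrobial ribonuclease, at 6.89, 6.87 and 4.34 and then 18.8, 9.73 and 12.9 CPM (1.18, adjusted p = 0.0127). Pla2g2a, annotated as a polymorphic pseudogene in the mouse, had 0 counts over the 3 day 2 libraries and 152 over the 3 day 8 libraries, at least 48.7-fold more against a floor of 3 counts over the group. Mmp7, the protease that activates pro-defensins, was not called: its values were 18.2, 13.3 and 10.7 CPM at day 2 and 17.7, 12.7 and 12.4 CPM at day 8, the groups overlapped and the log2 change was 0.01 ± 0.27. The Paneth cell list holds 11 genes, 3 of them defensins. Of these 11, 8 rose, beside 8.06% of all genes, and 3 (Mmp7, Dll4 and Habp2) were not called, with a median of 1.36. The count was 5 without day 8 sample 1.

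**Figure D2:**
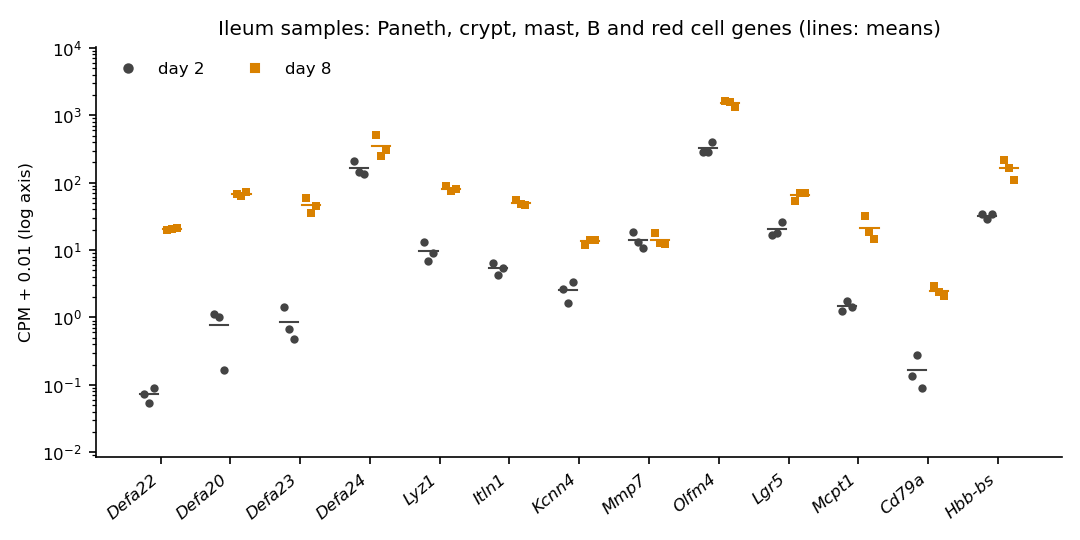
CPM plus 0.01 on a log axis for 13 genes of Paneth, crypt, mast, B and red blood cells, with the 3 day 2 and the 3 day 8 libraries as separate points. Defa22 lies below 0.08 CPM at day 2 and above 19 CPM at day 8, Lyz1 moves from at most 12.9 to at least 74.3 CPM, and Mmp7 overlaps between the ages.

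Most crypt stem cell genes rose. Of the 16 listed genes, all of which were tested, 13 rose, 1 fell and 2 (Znrf3 and Sox9) were not called, with a median log2 change of 1.19; over all genes 8.06% rose. Olfm4, a secreted glycoprotein that marks crypt base cells (chr14:79984081-80023139), was at 288, 286 and 397 CPM at day 2 and 1614, 1563 and 1336 CPM at day 8, a 4.65-fold rise (2.22 ± 0.24, edgeR adjusted p = 1.62e-07). Lgr5, the R-spondin receptor of cycling stem cells (chr10:115450311-115587780), went from 16.9, 18.1 and 26.5 CPM to 53.4, 71.3 and 70.4 CPM (1.67 ± 0.24, adjusted p = 2.5e-05). Day 8 libraries were high throughout and no day 2 library came near them for either gene. Ascl2, a transcription factor of the stem cell state, changed by 1.98, the chloride channel regulator Clca3b by 1.98, Smoc2 by 1.61 and the Wnt target Axin2 by 1.28. Tnfrsf19, a TNF receptor of stem cells, was at 0.627, 0.837 and 0.553 and then 3.38, 3.05 and 5.0 CPM (2.51, adjusted p = 2.7e-05). The member that fell was Nrn1, with 154, 199 and 168 CPM and then 116, 103 and 102 CPM (-0.69, adjusted p = 0.00714). With each library left out in turn, 12 to 14 members rose. Wnt3, the Wnt ligand that Paneth cells supply to stem cells, also rose, from 1.41, 1.32 and 1.22 CPM to 3.11, 4.63 and 4.31 CPM (1.61 ± 0.24, adjusted p = 3.86e-05).

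Cell cycle genes rose in part. Of 25 listed genes 14 rose, beside 8.06% of all genes, and the other 11 were not called, and the median change was 0.70. Birc5, a mitotic survivin, was at 15.6, 14.1 and 21.2 CPM and then 36.1, 27.9 and 25.9 CPM (0.82 ± 0.18, edgeR adjusted p = 0.00242), and the thymidylate synthase Tyms changed by 0.82. Mki67, the proliferation marker, was at 183, 123 and 236 CPM at day 2 and 271, 329.9 and 281 CPM at day 8 (0.70 ± 0.22, adjusted p = 0.0274). Its day 2 libraries were spread widely, with sample 3 close to day 8 sample 1, and leaving out any of 5 of the 6 libraries took its adjusted p to between 0.0511 and 0.184. The replication helicase genes Mcm2 (0.21) and Mcm6 (0.08) had overlapping groups. The count of 14 fell to 4 without day 2 sample 2 or day 8 sample 1, to 5 without day 2 sample 1 and to 9 without day 8 sample 2. It was 8 with the sex index. With day 2 sample 1 alone against day 8 edgeR called 0 of the 25, with 15 at an unadjusted p under 0.05, and DESeq2 called 17 with all libraries in.

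Transcripts of several immune cells were higher at day 8. In bulk tissue, more cells of a type and more RNA per cell cannot be told apart. Mcpt1, a protease of mucosal mast cells, was at 1.22, 1.76 and 1.42 CPM and then 31.6, 18.2 and 14.4 CPM (3.87 ± 0.54, edgeR adjusted p = 2.27e-05), and Mcpt2, its neighbour in the same granules, at 0.909, 1.06 and 1.54 CPM and then 23.3, 11.6 and 7.45 CPM (3.59 ± 0.50, adjusted p = 1.69e-05). Day 8 sample 1 was the highest for both, and every day 8 library was above every day 2 library. Kit, the stem cell factor receptor of mast cells and of interstitial pacemaker cells, gave overlapping values (11.4, 14.1 and 15.1, then 14.6, 15.6 and 18 CPM). Of 9 tested mast cell genes 5 rose (median 2.49), beside 8.06% of all genes. The 5 rises were 3 without day 8 sample 1 and 3 without day 2 sample 1. The B cell list gave 7 rises among 11 genes (median 2.25), beside 8.06% of all genes. Cd79a, part of the antigen receptor, went from 0.125, 0.264 and 0.079 CPM to 2.94, 2.38 and 2.06 CPM (3.98 ± 0.63, edgeR adjusted p = 8.08e-05). These levels are low but the groups were far apart. Jchain, which joins IgA dimers in plasma cells, stayed under 0.3 CPM in all 6 libraries. T cell genes were low as well, with 1 call (Il7r, lost when any library was left out) among 16 tested, beside 18.9% of all genes. Cd3e was between 0.407 and 0.632 CPM. Among 17 macrophage and dendritic cell genes the one call was a fall of Mertk (154, 165 and 161, then 83, 91.9 and 99.8 CPM, -0.80, adjusted p = 0.00172), the receptor for dying cells. All 18 genes of the list, tested or not, summed to 302, 334 and 294 CPM at day 2 and 220.4, 251 and 248 CPM at day 8. Mertk was a large part of these sums. The median log2 change of the 17 tested genes was 0.32, and 13 of them had a positive change.

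Genes for antigen presentation on MHC class II rose in 7 of 9 cases (median 1.13), beside 8.06% of all genes. H2-Ab1, a class II beta chain, was at 3.76, 4.27 and 3.08 CPM and then 9.48, 8.79 and 7.96 CPM (1.24 ± 0.31, edgeR adjusted p = 0.00704), and the invariant chain gene Cd74 at 13.9, 14.7 and 8.61 and then 23.3, 26.4 and 25.9 CPM (1.03, adjusted p = 0.0265). Every day 8 library was above every day 2 library for both. The count of 7 was 1 without day 2 sample 3, 2 without day 2 sample 1 or day 8 sample 1, 3 without day 8 sample 3 and 4 without either sample 2. It was 3 with the sex index. With day 2 sample 1 alone against day 8 edgeR called 0 of the 9, with 3 at an unadjusted p under 0.05, and DESeq2 called 8 with all libraries in. The master regulator Ciita (1.1, 1.28 and 0.829, then 2.29, 2.52 and 1.94 CPM) was not called (adjusted p = 0.0552).

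Red blood cell genes rose in 7 of 9 tested cases (median 2.12), beside 8.06% of all genes. Hbb-bs, an adult beta-globin, was at 34.2, 28.7 and 33.8 CPM and then 220.2, 163 and 110.4 CPM (2.35 ± 0.59, edgeR adjusted p = 0.00758), and the heme synthesis gene Alas2 of erythroid cells at 1.63, 0.793 and 1.66 and then 7.52, 5.97 and 4.65 CPM (2.12, adjusted p = 0.0174). The embryonic globins Hbb-y and Hba-x had 0 counts in all 6 libraries. Summed over the list, red cell transcripts were at 86.4, 69.8 and 86.9 CPM at day 2 and 445, 392 and 283 CPM at day 8; how much blood each piece of tissue held was not measured. The count of 7 was 2 without day 2 sample 2, 3 without day 8 sample 1 and 4 without day 2 sample 3.

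Several genes of the epithelial surface changed. Pigr, which carries IgA across the epithelium into the lumen, was at 114, 70.3 and 116 CPM at day 2 and 329, 336 and 335 CPM at day 8 (1.74 ± 0.33, edgeR adjusted p = 0.000697). Ccl28, a chemokine of mucosal epithelium that attracts antibody-secreting cells, went from 8.02, 7.75 and 8.88 CPM to 24.2, 22.5 and 18.9 CPM (1.41 ± 0.19, adjusted p = 1.17e-05). Both were higher in every day 8 library. Pkp1, a desmosome protein (chr1:135871395-135919207), gave the largest rise outside the defensins under the rule for named genes, from 0.0627, 0 and 0.118 CPM to 6.98, 8.29 and 8.19 CPM (6.89 ± 0.41, adjusted p = 5.92e-12). Sprr2a1, a small proline-rich protein, changed by 1.45 (adjusted p = 0.00609). The lectin Reg3b fell, from 33.9, 20.1 and 16.3 CPM to 7.9, 5.74 and 11 CPM (-1.51, adjusted p = 0.0407), and lost its call when any library was left out (adjusted p up to 0.186). Its relative Reg3g (13.9, 5.77 and 6.67, then 4.74, 2.89 and 3.4 CPM) missed the threshold (adjusted p = 0.0524), while Lypd8, which keeps flagellated bacteria off the epithelium of the colon, fell from 1447, 1517 and 1539 CPM to 766, 811 and 617 CPM (-1.04 ± 0.14, adjusted p = 1e-05).

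Genes of fetal growth were among the largest falls. H19, a non-coding RNA transcribed from the maternal chromosome (chr7:142575529-142578143), was at 707, 1007 and 811 CPM at day 2 and 60.9, 69.7 and 68.8 CPM at day 8, a 12.7-fold fall (-3.66 ± 0.62, edgeR adjusted p = 0.000264). Igf2, the fetal growth factor transcribed from the paternal chromosome of the same locus (chr7:142650766-142666816), went from 551, 745 and 554 CPM to 114, 162 and 203 CPM (-1.95 ± 0.29, adjusted p = 3.68e-05). Every day 2 library was far above every day 8 library, and day 2 sample 2 was the highest for both. Igf2r, the receptor that clears IGF2, fell by 0.91 on the log2 scale, the cell cycle inhibitor Cdkn1c by 0.96, and the zinc finger gene Peg3 by 1.22. Peg10, which derives from a retrotransposon, went from 9.65, 7.93 and 5.25 CPM to 1.04, 0.839 and 0.942 CPM (-3.02 ± 0.56, adjusted p = 0.0005). In the imprinted list of 19 tested genes 7 fell, 1 rose and 11 were not called (median -0.65); over all genes 10.8% fell. With each library left out in turn 6 fell. The member that rose was Dcn, a proteoglycan of connective tissue (1.57, 14 and 3.71, then 39.96, 13.4 and 37.8 CPM), with day 2 sample 2 above day 8 sample 2; it kept its call only without either of those 2 libraries and was at adjusted p up to 0.111 otherwise.

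Other large falls under the rule for named genes were of single genes. Afp, the fetal serum protein alpha-fetoprotein, was at 419.9, 1099 and 710.1 CPM and then 51.2, 73.7 and 68.6 CPM (-3.52 ± 0.51, edgeR adjusted p = 4.58e-05). Trf, which encodes transferrin, the iron carrier of serum, went from 150.1, 275 and 201 CPM to 17, 24.9 and 33.7 CPM (-3.04 ± 0.30, adjusted p = 1.02e-07). Alb was between 0 and 0.132 CPM in the 6 libraries, and the part of liver tissue was not tested. Cdh4, R-cadherin (chr2:179442431-179899373), had the largest fall under the rule for named genes, from 15.4, 22.1 and 18.4 CPM to 0.763, 0.973 and 0.771 CPM (-4.46 ± 0.52, adjusted p = 1.26e-06). Abcb11, the bile salt export pump, changed by -2.96, Ugt1a9, a glucuronosyltransferase that shares exons with its neighbours, by -2.74, the chromatin remodeller Smarca1 by -2.41, and Gatm, which makes the creatine precursor, by -2.26. Each of these 4 passed at adjusted p between 2.58e-08 and 7.32e-05 with no overlap between the ages.

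The RNA-binding proteins and regulators of developmental timing fell as well, 8 of 12 tested beside 10.8% of all genes, with 1 rise and a median of -0.69. Igf2bp1, which binds Igf2 and other fetal mRNAs, was at 25.3, 26.5 and 30.1 CPM and then 5.89, 8.53 and 7.19 CPM (-1.91 ± 0.34, edgeR adjusted p = 0.000496), and its relative Igf2bp2 at 116, 138 and 123 and then 64.7, 80.6 and 78.8 CPM (-0.75, adjusted p = 7.32e-05). Neither overlapped between the ages. Lin28b, which blocks let-7 maturation, was under 0.6 CPM in every library (0.501, 0.0881 and 0.197, then 0.273, 0.0671 and 0 CPM) and was not called. The rise was of Hmga1, a chromatin protein of proliferating cells (91.3, 85.7 and 111, then 145, 152 and 151 CPM, 0.64, adjusted p = 0.0113), while Hmga2 overlapped (0.13). Without day 8 sample 1 the 8 falls were 3, without day 2 sample 2 or 3 they were 4, and without day 8 sample 3 they were 5.

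**Figure D3:**
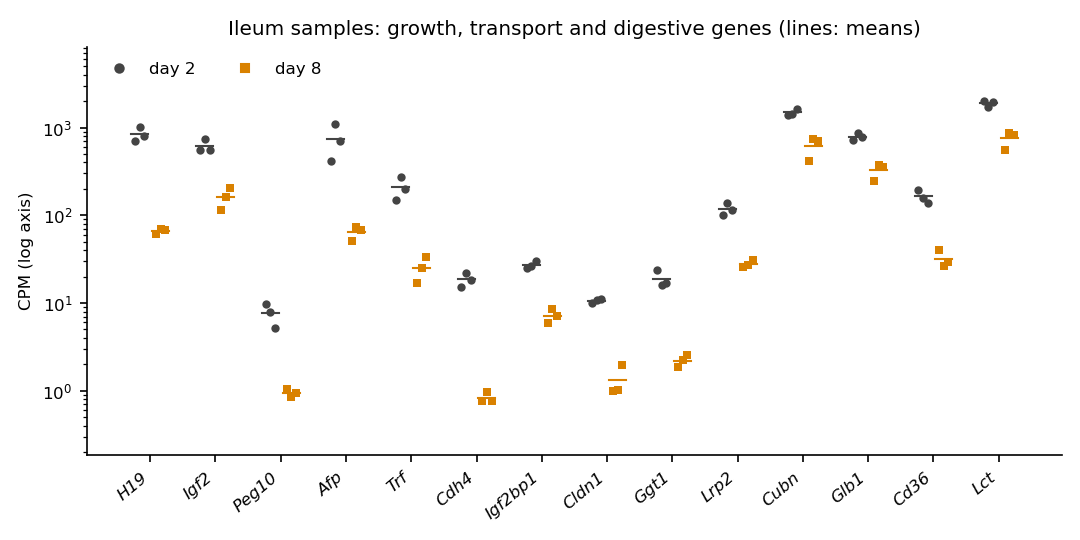
CPM on a log axis for 14 genes that are lower at day 8, with the 3 day 2 and the 3 day 8 libraries as separate points. H19 drops from at least 707 to at most 69.7 CPM and Cdh4 from at least 15.4 to below 1 CPM, while the enterocyte genes Cubn, Glb1 and Lct move by less, with no overlap between the ages.

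Of 10 listed genes with which suckling enterocytes take up milk protein and IgG, 4 fell, beside 10.8% of all genes, and the other 6 were not called. Cubn, the apical receptor for protein uptake, was at 1394, 1442 and 1634 CPM and then 418, 750.1 and 699 CPM (-1.26 ± 0.25, edgeR adjusted p = 0.00101), and its partner Lrp2, megalin, at 100.045, 138 and 114 CPM and then 25.6, 26.9 and 30.8 CPM (-2.08 ± 0.42, adjusted p = 0.0016). Day 8 sample 1 was the lowest for both, and the groups did not overlap. The third subunit of that receptor, Amn (-0.46, adjusted p = 0.279), and the adaptor Dab2 (-0.44, adjusted p = 0.275) were not called. Fcgrt, the receptor that carries maternal IgG from milk across the epithelium, was at 1673, 1696 and 1458 CPM and then 799, 1025 and 1106 CPM (-0.72 ± 0.25, adjusted p = 0.0434), and lost its call when any single library was left out (adjusted p 0.0756 to 0.206). The list's median was -0.56, and 2 of its genes fell without day 2 sample 2 or day 8 sample 1.

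Lysosomal genes fell in 17 of 25 cases, beside 10.8% of all genes, and the other 8 were not called, with a median change of -0.58. Glb1, the lysosomal beta-galactosidase, fell most, from 719, 860.0 and 786 CPM to 249, 376 and 354 CPM (-1.27 ± 0.22, edgeR adjusted p = 0.000191). Lamp2, a protein of the lysosomal membrane, was at 509.9, 724 and 592 and then 347, 345 and 331 CPM (-0.83, adjusted p = 0.000634), and the alpha-galactosidase Gla at 73.3, 94.3 and 89 and then 43.3, 49.3 and 49 CPM (-0.86, adjusted p = 0.00208). All 3 were lower in every day 8 library. Cathepsin D, Ctsd (-0.80), and the acid lipase Lipa (-0.75) also fell, whereas Ctsl (-0.37), Scarb2 (-0.17) and Cd63 (-0.16) were not called. The count of 17 was 4 without day 8 sample 1, 5 without day 2 sample 2, 7 without day 2 sample 3 and 10 without day 8 sample 3.

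Fat handling was lower in part. Cd36, a fatty acid carrier of the brush border (chr5:17781690-17888801), went from 196, 156 and 139 CPM to 40.2, 26.3 and 29 CPM (-2.37 ± 0.49, edgeR adjusted p = 0.00203). The groups were far apart, and no left-out library took the call away. Dgat2, which completes triglyceride synthesis, was at 877, 729.6 and 807 and then 381, 487 and 444 CPM (-0.88, adjusted p = 0.003), and Mttp, which loads lipid onto nascent chylomicrons, at 4036, 3094 and 3374 and then 1939.6, 2134 and 1677 CPM (-0.87, adjusted p = 0.0131; up to 0.0765 with a library left out). Apob, the chylomicron's structural protein (8609.6, 7782 and 8548, then 5368, 5849.7 and 6233 CPM), did not pass (adjusted p = 0.0891), nor did Apoa4 (adjusted p = 0.408). The cytosolic carriers Fabp1 and Fabp2 overlapped: Fabp1 was at 1243, 979.7 and 988 CPM and then 1393, 581 and 859 CPM, with day 8 sample 1 the highest of all 6 and day 8 sample 2 the lowest. Of 19 genes 9 fell (median -0.52), beside 10.8% of all genes. The 9 falls were 4 without day 8 sample 1 and 6 without day 2 sample 2 or day 8 sample 3.

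Genes of fatty acid oxidation fell in 13 of 17 tested cases (median -0.55), beside 10.8% of all genes. Cpt2, which brings fatty acids into the mitochondrion, was at 98.1, 85.5 and 91.2 CPM and then 38.7, 53.3 and 46.6 CPM (-0.99 ± 0.13, edgeR adjusted p = 5.18e-06), and Ppara, the nuclear receptor that drives these genes, at 23.4, 19.95 and 19.1 and then 8.39, 12.7 and 9.99 CPM (-1.0 ± 0.20, adjusted p = 0.00118). Neither overlapped. The beta-oxidation genes Hadha (-0.55) and Acadl (-0.61) also fell. The count was 6 without day 8 sample 1, 7 without day 2 sample 3 or day 8 sample 3, and 9 to 11 without the others. The cholesterol list gave 2 rises among 22 (Idi1, 0.70, and Mvk, 0.87), beside 8.06% of all genes. Its median was 0.10, and groups overlapped for 18 of the 20 others. Without day 8 sample 2 edgeR called 0 rises and 1 fall in this list, while DESeq2 called 2 rises with all libraries in. Idi1 lost its call without any of 4 libraries (adjusted p up to 0.0871) and Mvk without any of 3 (up to 0.0936).

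Among nutrient transporters, 8 of 13 amino acid and peptide carriers fell and 1 rose (median -0.63), beside 10.8% and 8.06% of all genes. Slc3a1, the subunit of the cystine transporter, was at 325, 354 and 348 CPM and then 133, 170.4 and 137 CPM (-1.22 ± 0.21, edgeR adjusted p = 0.000244), and the peptide transporter Slc15a1 at 90.6, 88.6 and 97.9 and then 39.8, 45.9 and 46.6 CPM (-1.06, adjusted p = 0.0211, up to 0.101 with a library left out). The glutamate carrier Slc1a1 rose (7.08, 10.3 and 8.13, then 13, 14.6 and 16.2 CPM, 0.78), a call lost in 5 of the 6 fits that left out a library and kept without day 2 sample 2. The 8 falls were 2 without day 8 sample 1, 4 without day 2 sample 2, day 2 sample 3 or day 8 sample 3, and 5 without day 2 sample 1. Of 12 hexose and gluconeogenesis genes 6 fell (median -0.67), beside 10.8% of all genes. Among the 6 were the fructose transporter Slc2a5 (11.3, 11.9 and 11.6, then 2.73, 3.42 and 3.74 CPM, -1.80 ± 0.45, adjusted p = 0.00697) and G6pc, which releases free glucose (-1.0, adjusted p = 0.0113). That count was 1 without day 8 sample 1, 2 without day 2 sample 2, and 3 without day 2 sample 1, day 2 sample 3 or day 8 sample 3. Brush border peptidases fell in 4 of 13 cases (median -0.72), beside 10.8% of all genes. Ggt1, which cleaves glutathione, went from 23.9, 15.9 and 17.1 CPM to 1.85, 2.22 and 2.57 CPM (-3.08 ± 0.36, adjusted p = 1.82e-06). Ace, the angiotensin-converting enzyme, went from 1476, 1709.7 and 1543 CPM to 405, 678 and 672 CPM (-1.43 ± 0.32, adjusted p = 0.00289).

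Lct, the lactase of milk sugar, was at 2008, 1701 and 1947 CPM at day 2 and 548, 878 and 831 CPM at day 8. Every day 2 library was far above every day 8 library, but the log2 change of -1.32 ± 0.50 had an edgeR adjusted p of 0.0607 and was not called. Sucrase-isomaltase, Sis, which replaces lactase at weaning, overlapped (25, 20.8 and 21, then 44.3, 20.8 and 28.2 CPM), and trehalase, Treh, rose from 0.721, 0.176 and 0.553 CPM to 2.13, 1.91 and 2.06 CPM (1.99, adjusted p = 0.022, up to 0.0974 with a library left out).

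Arginine synthesis from glutamine, a pathway of the newborn gut, fell in 6 of 11 genes (median -0.45), beside 10.8% of all genes. Nags, which makes the activator of carbamoyl phosphate synthesis, was at 26.1, 25.3 and 25.4 CPM and then 15.4, 17.2 and 16.7 CPM (-0.64 ± 0.12, edgeR adjusted p = 0.000793), and Asl, the last enzyme before arginine, at 102, 118 and 111 and then 65.9, 74.7 and 73.4 CPM (-0.63, adjusted p = 0.00704). Both were lower in every day 8 library. Ass1 (481, 541 and 539, then 233, 332 and 337 CPM, -0.79, adjusted p = 0.0295) lost its call without any of 5 libraries, with an adjusted p up to 0.174. The large carbamoyl phosphate synthase Cps1 was not called (-0.45, adjusted p = 0.0766), and Otc overlapped. The 6 falls were 2 without day 2 sample 3 or day 8 sample 1, 3 without day 8 sample 3 and 4 without day 2 sample 1 or 2.

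Of 11 genes of bile acid uptake and signalling, 2 rose and 3 fell, beside 8.06% and 10.8% of all genes. The export carriers Slc51a (231, 229.8 and 218, then 130.3, 149 and 146 CPM, -0.67, edgeR adjusted p = 0.0126) and Abcc2 (1945, 2255 and 1843, then 889, 1216 and 1046 CPM, -0.94, adjusted p = 0.00951) fell, and Abcc3 rose (0.95, adjusted p = 0.0206), a call lost in 4 of the 6 fits that left out a library (up to 0.106). The apical uptake carrier Slc10a2, which defines the mature ileum, was under 1.7 CPM in all 6 libraries (0.595, 1.01 and 0.553, then 1.69, 1.17 and 1.28 CPM) and was not called. Fabp6 was at 6.99, 5.77 and 6.95 CPM and then 42, 17.4 and 28.2 CPM (2.14 ± 0.75, adjusted p = 0.0494), a rise that held only without day 8 sample 2 when single libraries were left out (adjusted p up to 0.187 otherwise). The ileal hormone Fgf15, which signals bile acid load to the liver, was at 151, 187 and 178 CPM and then 71.8, 84 and 75.2 CPM, separate groups that were not called (adjusted p = 0.208). The list's median was -0.50. Of the fits that left out a library its 2 rises stood only in that without day 8 sample 2, and they were 1 without day 2 sample 2; without day 2 sample 1 or 3 or day 8 sample 1 or 3, and with the sex index, edgeR called no rise, with 5 to 7 of the 11 at an unadjusted p under 0.05 in either direction. The 3 falls were 1 without day 2 sample 2 or day 8 sample 1 and 4 with the sex index, and DESeq2 called 2 higher and 4 lower with all libraries in. Of 8 iron genes tested 1 rose and 3 fell (median -0.59), beside 8.06% and 10.8% of all genes. The transferrin receptor Tfrc rose (146, 86.9 and 133, then 226, 201 and 196 CPM, 0.77, adjusted p = 0.0112, up to 0.0938 with a library left out). Heph, which oxidises iron for export, was among the falls (-0.65, adjusted p = 0.00751). The 3 falls were 1 without day 8 sample 1 or any day 2 library. Without day 8 sample 3 edgeR called no fall, and DESeq2 called 4 lower with all libraries in.

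The part of a changing epithelial share in these falls was not tested. The 17 genes common to intestinal epithelium summed to 5442, 5676 and 5981 CPM at day 2 and 4592, 5351 and 5010.4 CPM at day 8. Of these 17, 4 fell (median -0.14), beside 10.8% of all genes, including Hnf4g (-0.74, edgeR adjusted p = 0.00479), Vil1 (-0.47) and Prdm1 (-0.63). The count of 4 was 1 without day 8 sample 1 or day 2 sample 3 and 2 without day 2 sample 1 or 2. Epcam (-0.14), Krt8 (0.04) and Cdx2 (-0.00) overlapped between the ages. Among transcripts encoded by the mitochondrion, 7 of 13 rose (median 0.66), beside 8.06% of all genes, with day 8 sample 1 the highest for each of the 13. The transcript mt-Co3 was at 11770.0, 13828 and 10414 CPM and then 40162, 12998 and 23466 CPM, with day 8 sample 2 inside the day 2 range. Without day 8 sample 1 edgeR called 0 of the 13, with 1 at an unadjusted p under 0.05, while DESeq2 called 7 with all libraries in. Of the 13, 1 rose without day 2 sample 3 and 4 without day 2 sample 2. The part of this library's mitochondrial share in the falls was not tested by itself. With mitochondrial genes left out of the scaling 3710 genes were called in place of 3865. With day 8 sample 1 left out as well 1411 genes were called.

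Tight junction genes fell in 6 of 15 cases (median -0.32), beside 10.8% of all genes. Cldn1, a sealing claudin, went from 10.1, 10.8 and 11.1 CPM to 0.981, 1.01 and 1.97 CPM (-2.98 ± 0.29, edgeR adjusted p = 2.58e-08). The pore-forming Cldn2 (396, 394 and 396, then 239, 274 and 240.5 CPM, -0.65, adjusted p = 0.0241), Cldn8 (-1.17) and the scaffold Tjp1 (-0.48) fell by less. Cldn1 kept its call without any one library, but Cldn2 had an adjusted p up to 0.104, Cldn8 up to 0.0977 and Tjp1 up to 0.0671. The count of 6 was 1 without day 8 sample 1, 2 without day 2 sample 2 or day 8 sample 3 and 3 without day 2 sample 3. Among 19 ion and fluid transport genes tested 3 rose and 4 fell (median -0.30), beside 8.06% and 10.8% of all genes. With a library left out the rises were 3 or 4 and the falls 2 to 4. The basolateral cotransporter Slc12a2 (213, 194 and 260.3, then 433, 458 and 425 CPM, 0.98, adjusted p = 0.00196) and the potassium channel Kcnq1 (0.95, adjusted p = 0.000994) rose, and the guanylate cyclase Gucy2c fell (435, 468 and 494, then 238, 309 and 264 CPM, -0.79, adjusted p = 0.000923).

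Of 22 Toll-like receptor and adaptor genes 8 fell and 2 rose, beside 10.8% and 8.06% of all genes. Tlr5, the flagellin receptor, fell from 27.9, 26 and 28.8 CPM to 9.27, 14.9 and 12.8 CPM (-1.15 ± 0.24, edgeR adjusted p = 0.0014), and the adaptor Tirap from 21.5, 23.1 and 24.8 CPM to 13.5, 15.2 and 14 CPM (-0.70, adjusted p = 0.00118). Tlr4, the endotoxin receptor, was at 1.38, 0.969 and 0.711 CPM and then 0.872, 1.54 and 1.28 CPM, overlapping and not called. Tlr3, a receptor for double-stranded RNA, rose (3.82, 1.67 and 1.54, then 4.8, 4.26 and 5.39 CPM, 1.01, adjusted p = 0.0239, up to 0.123 with a library left out). The list's median was -0.17. The falls were 3 without day 2 sample 3 or day 8 sample 1, 4 without day 2 sample 1 or 2 and 6 with the sex index. The rises were 1 without day 8 sample 3, and edgeR called none without day 2 sample 2 or 3 or day 8 sample 1 or with the sex index, with 8 to 12 of the 22 at an unadjusted p under 0.05 in either direction, while DESeq2 called 2 with all libraries in. Interferon-stimulated genes gave 1 rise (Isg15, 6.58, 3.79 and 5.8, then 11.2, 12.8 and 13.7 CPM) and 2 falls (Ddx58 and Stat2) among 22 tested, beside 18.9% of all genes called.

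Among markers of secretory cells, 2 of 16 goblet, 3 of 18 enteroendocrine and 2 of 10 tuft cell genes were called, beside 18.9% of all genes. Muc2, the gel-forming mucin, was at 882, 899 and 849 CPM and then 389, 519 and 899 CPM, with day 8 sample 3 as high as day 2. Of 16 goblet genes 1 rose (Spink4, 47.3, 35.1 and 30.7, then 133, 68 and 69.96 CPM, 1.26, edgeR adjusted p = 0.000881) and 1 fell (Muc13, -0.66, adjusted p = 0.00975). Chga, the granin of endocrine cells, overlapped (57.3, 49.5 and 40.4, then 38.5, 45.9 and 49.9 CPM). Of the endocrine genes 3 rose among 18, namely the progenitor factor Neurog3 (1.19), Isl1 (1.11) and the proglucagon gene Gcg (28.4, 31.4 and 24.8, then 48.1, 43 and 38.4 CPM, 0.61), and without day 8 sample 1 or 3 or day 2 sample 2 or 3 that count was 1. The tuft cell genes Pou2f3 (0.188, 0.22 and 0.079, then 0.436, 0.336 and 0.571 CPM) and Ptgs1 (4.89, 3.79 and 3.16, then 7.25, 5.94 and 8.59 CPM) rose, and the list's median was 0.76. Its rises were 1 without day 2 sample 1; without day 2 sample 2 or 3 or day 8 sample 1 or 3 edgeR called 0 of the 10, with 2 at an unadjusted p under 0.05 each time, and DESeq2 called 2 with all libraries in. With the sex index edgeR called 0 of them as well, with 3 at an unadjusted p under 0.05. Dclk1 and Trpm5 were under 1 CPM in every library. In the list of drug and xenobiotic metabolism 2 of 29 rose and 5 fell, beside 8.06% and 10.8% of all genes. The falls were 4 without day 8 sample 1 and 2 without any other library. Cyp3a25, a cytochrome P450, went from 4.36, 1.01 and 1.66 CPM to 21.7, 15.4 and 14.9 CPM (2.83 ± 0.38, adjusted p = 1.27e-05), and Cyp4f14, of another P450 family, from 1.6, 2.16 and 2.72 CPM to 6.38, 6.81 and 7.02 CPM (1.65, adjusted p = 0.000173).

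Of 27 genes of hedgehog, BMP and Wnt signals 7 were called, 6 higher and 1 lower, beside 18.9% of all genes. Rspo1 and Rspo3, the R-spondins that amplify Wnt signalling in crypts, rose from 0.0313, 0.793 and 0.237 CPM to 3.49, 2.05 and 2.6 CPM (2.99 ± 0.76, edgeR adjusted p = 0.00747) and from 0, 0.176 and 0.0395 CPM to 0.709, 0.269 and 0.799 CPM (3.10, adjusted p = 0.0153). Rspo3 was under 1 CPM in every library and its 2 samples numbered 2 lay close together, so the size of its rise is uncertain. Wnt3, Wnt4, Wnt9b and the BMP antagonist Grem1 rose, and Bmp2, a ligand of villus cells, fell (-0.68). The call of Bmp2 was lost when any single library was left out, and those of Grem1 (up to 0.217) and Wnt4 (up to 0.195) in 4 of 6 such fits each. The 6 rises were 2 without day 2 sample 3 or day 8 sample 1 and 3 without day 8 sample 3. Of 11 EGF family genes 1 rose and 2 fell, beside 8.06% and 10.8% of all genes. Areg, which encodes amphiregulin, rose (1.17, adjusted p = 0.00753), and Tgfa (-0.72, adjusted p = 0.00417) and the receptor Erbb3 (-0.78) fell. Areg lost its call without day 2 sample 3 or day 8 sample 1 (adjusted p up to 0.0589), and Erbb3 without day 8 sample 1 (0.0803). Hox genes, which give position along the gut, rose in 4 of 23 cases beside 8.06% of all genes, Hoxc4 from 0.313, 0.705 and 0.434 CPM to 1.53, 1.21 and 2.17 CPM (1.77, adjusted p = 0.00715), and that count was 1 without day 2 sample 3 or day 8 sample 1. Of 15 fucosyl and sialyl transferase genes 2 rose (Fut1 and B4galnt1) and 4 fell (Fut2, St3gal1, St3gal3 and St3gal4), beside 8.06% and 10.8% of all genes. The list's median was 0.08. Fut2 went from 16.8, 10.8 and 11.3 CPM to 3.49, 5.17 and 4.51 CPM (-1.56, adjusted p = 0.0116). The 4 falls were 1 without day 2 sample 1 and 2 with the sex index or without day 2 sample 2 or 3 or day 8 sample 2 or 3, and the 2 rises were 1 without day 2 sample 1 or 3 or day 8 sample 3. Without day 8 sample 1 edgeR called no fall in this list, with 5 of the 15 at an unadjusted p under 0.05, and DESeq2 called 4 lower with all libraries in.

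Connective tissue genes were higher on average at day 8, and here 2 libraries stood near the other age. Col1a1, a chain of type I collagen, was at 18.1, 49.6 and 20.6 CPM at day 2 and 95.7, 53.4 and 112 CPM at day 8 (1.57 ± 0.41, edgeR adjusted p = 0.00963). Day 2 sample 2 was the highest of its age and day 8 sample 2 the lowest, so that they nearly met. The same order held for the matrix protein gene Eln (2.98, 8.15 and 1.74, then 17.6, 9.67 and 23.6 CPM, 1.99, adjusted p = 0.00903), for Postn (4.67, 6.12 and 3.16, then 19.4, 11 and 23.9 CPM, 1.96, adjusted p = 0.0101) and for Lrrn4, a marker of the serosal lining (0.251, 2.73 and 0.513, then 7.36, 4.23 and 9.93 CPM, 2.66, adjusted p = 0.00913). Of 18 matrix genes 7 rose (median 1.17), beside 8.06% of all genes. That count was 1 without day 2 sample 1, 2 without day 8 sample 3 and 4 without day 8 sample 1. Without day 2 sample 3 edgeR called 0 of the 18, with 7 at an unadjusted p under 0.05, and DESeq2 called 8 with all libraries in. Smooth muscle gave 3 rises among 13 (Lmod1, Cnn1 and Tpm2), beside 8.06% of all genes, with Acta2 not called (4.86, 10.04 and 3.12, then 11, 7.85 and 15.6 CPM). Those 3 rises were 6 without day 2 sample 2, 5 without day 8 sample 2 and 1 without day 2 sample 1 or day 8 sample 1. Without day 2 sample 3 or day 8 sample 3 edgeR called 0 of the 13, with 4 at an unadjusted p under 0.05 each time, and DESeq2 called 6 higher and 1 lower with all libraries in. Among 15 basement membrane genes none passed in edgeR, with 3 at an unadjusted p under 0.05 and 1 called by DESeq2, and Col4a1 overlapped (116, 113 and 65.3, then 65.8, 77.3 and 109 CPM). The endothelial genes Pecam1 (0.11) and Kdr (-0.34) overlapped as well. The part of the outer wall that each piece carried was not tested.

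Set among 6 of the 8 ages, some of these changes were steps in a longer course and others were a high or low point of those 6. Days 4 and 6 were left out because they are not part of the comparison and include samples at odds with their labels. The values are means of 3 different mice per age (± SD, n = 3), with no test between the other ages. H19 in ileum was at 7753 ± 886 CPM on the day of birth, 842 ± 152 CPM at day 2, 66.5 ± 4.82 CPM at day 8 and 0.551 ± 0.167 CPM at week 4, lower at each age than at the one before. Lyz1 was higher at each age than at the one before, from 2.96 ± 1.48 CPM at day 0 and 81.3 ± 7.13 CPM at day 8 to 1005 ± 387 CPM at week 4. The alpha-defensin sum had the same order, from 111 ± 29 CPM at day 0 to 4682 ± 1150.3 CPM at week 4.

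Olfm4 had its highest mean of the 6 ages at day 8, with 1505 ± 148 CPM against 1195 ± 55.5 CPM at week 2 and 641 ± 167 CPM at week 3. Mcpt1 did too, with 21.4 ± 9.06 CPM against 3.95 ± 0.346 CPM at week 2. For Lct the mean was 1885 ± 162 CPM at day 2, 752 ± 178 CPM at day 8 and 2126 ± 354 CPM at week 2, so among the 6 ages day 8 lay between higher means. Cubn followed that order over the same ages, with 1490.2 ± 127, 622 ± 179 and 1366 ± 113 CPM. Hbb-bs was at 241 ± 134 CPM at day 0, 32.2 ± 3.06 CPM at day 2 and 165 ± 54.9 CPM at day 8, and its lowest mean of the 6 ages was at day 2.

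**Figure D4:**
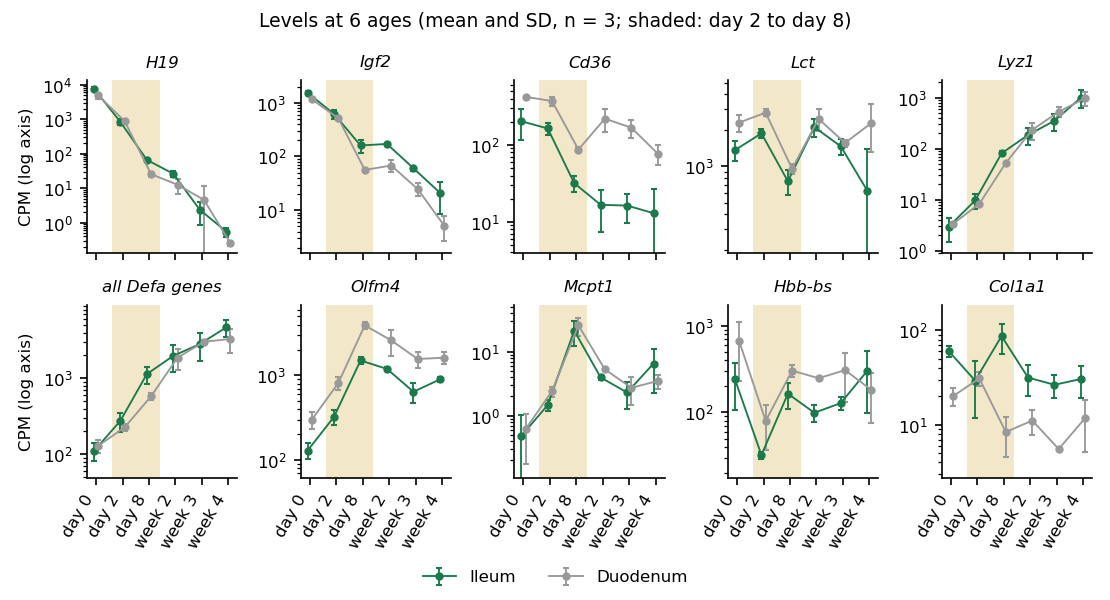
Mean CPM with SD (n = 3 mice per age and region) on a log axis at day 0, day 2, day 8, week 2, week 3 and week 4, ileum in green and duodenum in grey, with the interval from day 2 to day 8 shaded; a lower bar that reaches the axis runs past it. H19 and Igf2 fall, Lyz1 and the defensin sum climb to week 4, Olfm4 and Mcpt1 peak at day 8 in both regions, Lct is lower at day 8 than at day 2 and week 2, and the Col1a1 means of the regions are far apart at day 8.

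The same interval in duodenum, the first 2 cm after the pylorus, was used to ask which changes differed between the regions. There 8788 of 20442 genes passed (43%), 4415 of them higher (21.6%) and 4373 lower (21.4%), and 4021 changed by more than 2-fold (19.7%). The test of the difference between the 2 changes, the interaction term of the same edgeR fit, called 3300 genes (16.1%). The ileum and duodenum libraries are different samples, although pieces of 1 mouse may sit in both groups, which the labels do not say. The 3300 calls of the difference were 1277 without ileum day 8 sample 3, 1299 without ileum day 2 sample 3, 1991 and 1994 without ileum day 2 samples 2 and 1, and between 1405 and 1825 without any 1 duodenum library.

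Much of what is described above was not called as different between the regions. Olfm4 changed by 2.22 in ileum and 2.27 in duodenum (difference adjusted p = 0.931 in edgeR), Lgr5 by 1.67 and 1.82 (0.802), Lyz1 by 3.06 and 2.66 (0.6), and Mcpt1 by 3.87 and 3.42 (0.703). The lysosomal median was -0.58 in ileum and -0.82 in duodenum, with 17 and 22 of 25 genes called lower. For these 25 the difference was not called. A difference that is not called does not show equal changes: the standard error of the difference for Lyz1 was 0.47 on the log2 scale. H19 fell by 3.66 and 5.12 (adjusted p = 0.214) and Igf2 by 1.95 and 3.2, a smaller fall in ileum (1.25 ± 0.39, adjusted p = 0.0304, up to 0.0943 with an ileum library left out). Cell cycle genes were called higher in 14 of 25 cases in ileum and 25 of 25 in duodenum, and for 5 of them the change in ileum was smaller by the test of the difference, beside 16.1% of all genes called in that test.

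Mesenchymal, endothelial and macrophage genes differed between the regions. Pdgfra, the receptor of villus and crypt mesenchyme, was at 21.1, 17.5 and 13.7 CPM and then 19.2, 20.5 and 24.2 CPM in ileum (0.29, edgeR adjusted p = 0.566) and changed by -4.53 in duodenum, a difference of 4.82 ± 0.49 (adjusted p = 6.06e-07). Fendrr, a non-coding RNA of mesenchyme, changed by 0.80 and -5.53 (difference 6.33 ± 0.65, adjusted p = 6.06e-07). Adamdec1, a protease of gut stroma, changed by 0.36 and -3.09 (adjusted p of the difference = 1.82e-06), and the basement membrane collagen Col18a1 by 0.54 and -2.86 (1.83e-06). In ileum these 4 were not called, and in duodenum all 4 fell. They were named as the 4 with the smallest p of the difference. The list medians were 1.17 in ileum and -2.38 in duodenum for matrix genes, 0.17 in ileum and -2.73 in duodenum for basement membrane, -0.12 in ileum and -2.65 in duodenum for endothelium and 0.32 in ileum and -1.23 in duodenum for macrophages. The test of the difference called 16 of 18 matrix genes, 12 of 15 basement membrane genes, 14 of 17 endothelial genes and 7 of 17 macrophage genes, beside 16.1% of all genes. In each case the change in ileum was the higher one. Pancreatic transcripts, a sign of tissue next to the duodenum, had a median change of -3.35 in duodenum and 0.14 in ileum; their part in the duodenal falls was not tested.

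Class II genes and a few others also moved apart. H2-Ab1 changed by 1.24 in ileum and -0.77 in duodenum (difference 2.00 ± 0.43, edgeR adjusted p = 0.00259). Of the 9 class II genes 6 were called as different, all higher in ileum, beside 16.1% of all genes. Itln1 rose by more in ileum (1.84 ± 0.53, adjusted p = 0.019). Afp fell in ileum (-3.52) but was not called in duodenum (-0.73, adjusted p = 0.227), a difference of -2.80 ± 0.67 (adjusted p = 0.00705). Of 17 fatty acid oxidation genes tested 2 were called as different, beside 16.1% of all genes. These 2, Cpt2 (-0.99 and -0.06, adjusted p = 0.000923) and Ppara (-1.0 and 0.21, adjusted p = 0.0047), fell in ileum and were not called in duodenum. Of 11 genes of the arginine list 3 were called as different, beside 16.1% of all genes. For these 3, Cps1, Nags and Prodh, the change in ileum was the lower one, with differences of -1.09, -0.51 and -1.04.

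**Figure D5:**
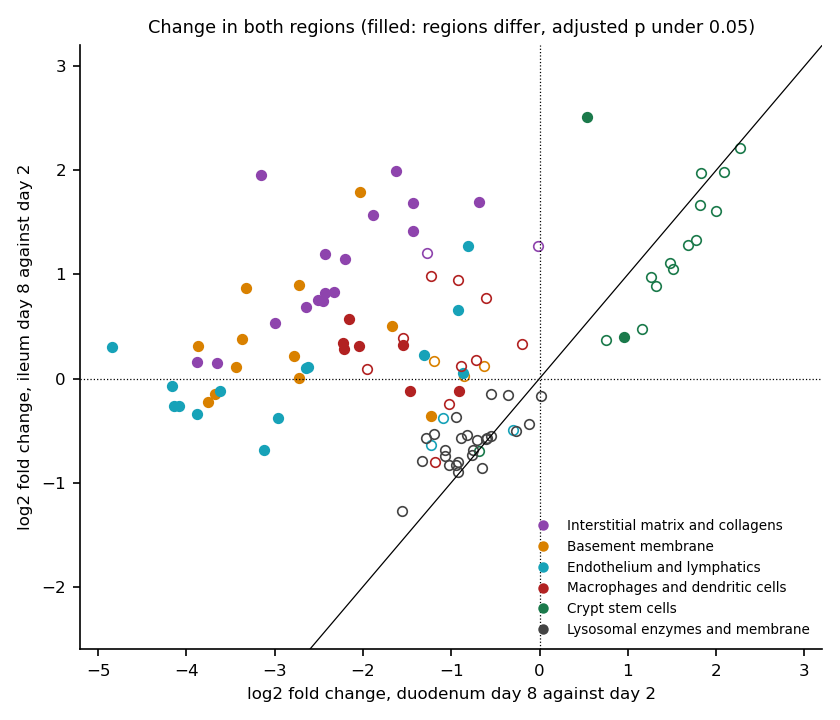
Log2 fold change from day 2 to day 8 in duodenum (horizontal) and ileum (vertical) for the tested genes of 6 lists, with the line of equal change; filled points differ between the regions at an adjusted p under 0.05 in edgeR's interaction test. Matrix, basement membrane and endothelial genes lie mostly left of 0 and above the line, with medians of -2.38, -2.73 and -2.65 in duodenum, while lysosomal genes and most crypt stem cell genes lie near it (Tnfrsf19 is the filled green point far above it).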

How the data were processed

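The 6 ileum libraries of days 2 and 8 were total RNA of 2 cm pieces of mouse intestine. The authors deposited estimated counts per gene, whole numbers in the table; the submitters' processing notes name STAR 2.6.1d, Salmon 0.14.2, DESeq2 1.30.1 and mm10, without their roles. The authors also deposited normalized values, each the count divided by 1 factor per library and used here as a signal on a log2 scale for an alternative only. The annotation release is not given in the sources used here. From the counts, edgeR 4.0.16 (R 4.3.3) fitted 36 libraries (6 ages in both regions, 1 mean per group) with TMM scaling, filterByExpr and the robust quasi-likelihood test. Benjamini-Hochberg adjustment ran over all 20442 genes tested, at a threshold of 0.05. SE is the log2 change over the square root of F. Fits were tested on simulated data.

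The comparison and the 54 gene lists (840 members, 837 in the table) were chosen with earlier results of these data known. Genes were named by a fixed rule: 30 panel genes, the 12 largest rises and 12 largest falls with a mean of at least 5 CPM and no overlap between the ages, up to 4 called members of each list with a mean of at least 1 CPM, and the 4 smallest p-values of the regional difference. Acadl, Ang4, Asl, Axin2, Cd74, Ctsd, Defa3, Defa17, Defa24, Gucy2c, Hadha, Hmga1, Kcnn4, Lipa, Nrn1, Slc1a1 and Smoc2 were added as examples after their values were seen. Bmp2, Cdkn1c, Defa38, Defa43, Fut1, Igf2r, Il7r, Peg3, Pou2f3, Rspo3, St3gal3 and Wnt9b are also named as called but lie outside the rule. So do Cps1 and Prodh, named for the regional difference. Rspo3 and Pou2f3 were under the rule's minimum of 1 CPM. Entries without a gene symbol held 0.545% to 0.866% of the counts and were kept in the test. Library totals limit precision, and SDs cover 3 mice.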

Additional observations from a re-analysis of the deposited data

Results flagged for a closer look

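Among the 197 named genes, 40 changed differently in ileum and duodenum by edgeR's interaction test at an adjusted p under 0.05, the test of the difference itself. Over all genes tested 16.1% were called in it. Pdgfra, Fendrr, Adamdec1 and Col18a1 were named for the 4 smallest p-values of this test, so their calls were fixed by that choice. Of these 40, 8 kept the call in each of 19 alternatives and 32 lost it in 1 or more. The values are the log2 change in ileum minus that in duodenum. Genes of mesenchyme and matrix were higher in ileum by this measure: Fendrr by 6.33, Postn by 5.11, Pdgfra by 4.82, Eln by 3.62, Col1a1 by 3.45, Adamdec1 by 3.44, Col18a1 by 3.40, Col12a1 by 3.12, Grem1 by 3.00, Wnt4 by 2.92 and Col14a1 by 2.38. The muscle genes Tpm2 (3.14) and Acta2 (2.89), the lymphatic marker Pdpn (2.08), the Hox genes Hoxc4 (3.56) and Hoxb4 (2.4) and the stress response gene Dusp1 (2.51) had the same sign. So did the imprinted genes Dlk1 (3.36) and Igf2 (1.25), Trim71 (1.31), the class II genes H2-DMb1 (2.33), H2-Ab1 (2.00) and H2-Eb1 (1.78), and the interferon response genes Isg15 (1.5), Stat2 (0.96) and Ddx58 (0.59).

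Of epithelial genes, Lrp2 (2.53), Tnfrsf19 (1.97), Itln1 (1.84), Cyp3a25 (1.61) and Gatm (1.05) were also higher in ileum by this difference, as was Ptgs1 (3.17). The difference was negative for Afp (-2.80), Ppara (-1.21), Cpt2 (-0.92), Idi1 (-0.90), Ugt2b5 (-0.86), Lypd8 (-0.79), Dnmt1 (-0.63) and Nags (-0.51).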

How the results depend on the processing

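The 3865 ileum calls were 2330 with no filter on low counts, 1073 with all 48 libraries in the fit, and 2427 and 2342 with limma on the authors' normalized values plus 1 and plus 0.1. With each ileum library left out in turn they ranged from 1528 (without day 8 sample 1) to 3491. Among alternatives chosen after seeing the data, the calls were 323 with day 2 sample 1 alone, 1411 without day 8 sample 1 and mitochondrial genes, and 2349 without sample 2 of both ages. Rises were 52.6% of the calls with no filter, against 42.6%. The 1182 calls over 2-fold were 482, 237 and 601 with all 48 libraries, with day 2 sample 1 alone, and without day 8 sample 1 and mitochondrial genes, and 607 to 1302 with libraries left out. Of the 30 panel genes 15 were called, against 8 with all 48 libraries and 6 with day 2 sample 1 alone. Of the list members 270 were called, against 86, 46, 115 and 172 with all 48 libraries, day 2 sample 1 alone, no day 8 sample 1 and mitochondrial genes, and no sample 2, and 119 to 229 with libraries left out. The 3300 regional differences were 1954 with no filter, 5767 with the compared groups alone, 236 with all 48 libraries and 1277 to 2755 with libraries left out. With the replicate number as a block the ileum calls were 3458, the calls over 2-fold 1084 and the regional differences 2982. Same-numbered samples had deviations correlated at 0.137, -0.0631 and -0.0218, and differently numbered ones at -0.122 to 0.166. With 3 samples per age these values cannot tell whether a shared number marks a shared litter. Of 178 called named genes, 47 kept the call in each of 21 alternatives and none of the 197 named genes changed sign while called. The causes were not tested. At 3 mice per age and with these depths, small changes of low genes may have gone uncalled, and the smallest change that could be called was not measured.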
